A study of Caenorhabditis elegans with 12 samples.

Results

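The transcripts described here are those whose level after joint loss of *gsr-1a* and *trxr-2* could not be obtained by combining the changes of both single mutants. Loss of 2 mitochondrial reductases was combined in a 2 by 2 design, and the interaction was computed for every gene as double mutant minus *gsr-1a* minus *trxr-2* plus wild type on the log2 scale, over all 12 of the 12 libraries of the series. An interaction of 0 means that the double mutant had the level given by multiplying the fold changes of both single mutants (called the multiplicative level here). A positive interaction means a higher level and a negative one a lower level. The same number is the change with *trxr-2* loss in the *gsr-1a* background minus the change with it in the wild-type background.

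Whole young adult *Caenorhabditis elegans* of 4 strains, synchronized by bleaching, were the source of the polyA RNA, with 3 libraries per strain. The strains were the *gsr-1a(syb266)* *trxr-2(tm2047)* double mutant, *gsr-1a(syb266)*, *trxr-2(tm2047)* and wild type (N2). In *syb266*, made by genome editing, *gsr-1* lacks the exon with the mitochondrial import signal, so the mitochondrial isoform GSR-1a is lost and the cytosolic isoform GSR-1b remains. *tm2047* is a null deletion of *trxr-2*. Both alleles had been outcrossed, each mutant strain was 1 line, and the double mutant was made by crossing, so differences at other loci carried by a line cannot be told apart from the effect of its named allele. The study describes the RNA-seq libraries as independent experiments with biological replicates, while the labels neither name separate cultures nor tie a replicate number to an experiment. The p-values measure the spread between these libraries.

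Mitochondria keep protein thiols reduced through the glutathione and the thioredoxin systems, both of which draw on NADPH. Glutathione reductase (GSR-1) turns oxidized glutathione back into its reduced form, and TRXR-2 reduces the mitochondrial thioredoxin TRX-2. When mitochondrial proteostasis or redox balance is disturbed, *C. elegans* is known to induce mitochondrial chaperones such as HSP-6 through the transcription factor ATFS-1, and also detoxification and innate immune genes, many of them in the intestine.

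Each library held between 12114187 and 19688212 counted read pairs (median 16360615). Transcripts of *trxr-2* were almost absent from both strains that carry *tm2047*: the 3 double mutant libraries together held 2 counts and the *trxr-2* libraries 2 counts, against 583 counts in *gsr-1a* and 706 counts in wild type. The wild-type *trxr-2* level was 328 times that of the double mutant (95% interval 90.4 to 2712) and 289 times that of *trxr-2* (79.8 to 2394), and these intervals cover counting error only. The *gsr-1* gene was at 258, 262, 277 and 286 CPM in double mutant, *gsr-1a*, *trxr-2* and wild-type libraries, with an interaction of 0.02 ± 0.18 (SE). CPM are counts scaled to the same total of 1e6 per library after normalization for library composition. Counts over the whole gene do not isolate the deleted exon and so do not check the *syb266* label. Yolk protein genes, which the adult intestine expresses, took 0.342% of the counts in wild-type replicate 1 and 1.79% in *trxr-2* replicate 1, against 3.57 to 6.78% in the other 10 libraries, and counts of calls are therefore also given without these 2 libraries. In RNA from whole worms, fewer cells of a type and less RNA per cell cannot be told apart.

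Among 15004 genes tested, 109 lay above the multiplicative level in the double mutant (0.726% of the genes tested) and 6 lay below it (0.04%). The 109 were led by genes of innate immunity and of xenobiotic metabolism, such as the C-type lectin *clec-4*, the lysozyme *lys-2*, the glucuronosyltransferases *ugt-62* and *ugt-19*, the cytochrome P450 genes *cyp-33C8* and *cyp-14A4* and the cadmium-responsive genes *cdr-4* and *cdr-2*. Each adjusted p below comes from edgeR's quasi-likelihood test, adjusted by Benjamini-Hochberg across the 15004 genes, and a value under 0.05 is a call. At an unadjusted p under 0.05, 1421 genes were higher (9.47%) and 245 lower (1.63%). The interaction had a wider error than a difference between 2 strains, with a median SE of 0.35 over all genes tested against 0.25 for the double mutant minus wild type.

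The 109 genes had a median interaction of 2.01 (0.82 to 6.54), and their measured level in the double mutant was 1.76 to 76.2 times the multiplicative level, with a median of 3.99. An interaction over 1 was reached by 104 of them, one over 2 by 55 and one over 3 by 22. In the single mutants these genes were near their wild-type level at the median, but not in every gene. Relative to wild type, the median log2 difference was 1.62 in the double mutant, −0.15 in *gsr-1a* and −0.16 in *trxr-2*. The range was −1.54 to 0.74 in *gsr-1a* and −2.26 to 0.49 in *trxr-2*. The 3 comparisons share the wild-type libraries. Over all genes tested the same medians were 0.03, −0.005 and −0.04. In 77 of the 109 genes both single-mutant differences were under 0.5 in size, a share that was not counted over all genes tested. The interaction that selected the 109 uses the same libraries, so their small or negative single-mutant differences follow in part from the selection.

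**Figure D1:**
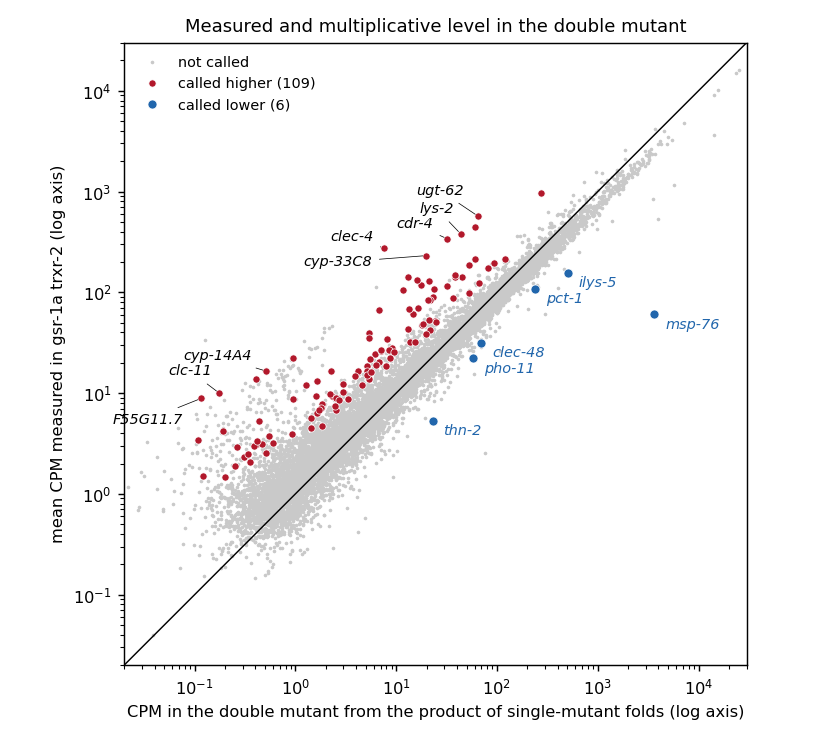
Mean level measured in the double mutant against the level given by multiplying the fold changes of both single mutants, in CPM on log axes, for the genes tested with a level above 0. Red points are the 109 genes called higher and blue points the 6 called lower, and the line marks equal levels. *clec-4* lay 36.1 times above the line, and *msp-76* lay farthest below it.

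Most called genes shared 1 shape. In 103 of the 109, the lowest double mutant library was above the highest of the other 9 libraries, a pattern that 10.7% of all genes tested also had. In 91 of these 103, no other strain lay wholly above or below the remaining libraries, in 9 all *trxr-2* libraries also lay below the rest (0.693% of all genes tested), and in 3 all *gsr-1a* libraries did. Of the genes below the multiplicative level, *ilys-5*, *pho-11*, *thn-2* and *clec-48* had all double mutant libraries below the other 9 (5.9% of all genes tested), while *pct-1* and *msp-76* had all wild-type libraries below the other 9 (0.527%).

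**Figure D2:**
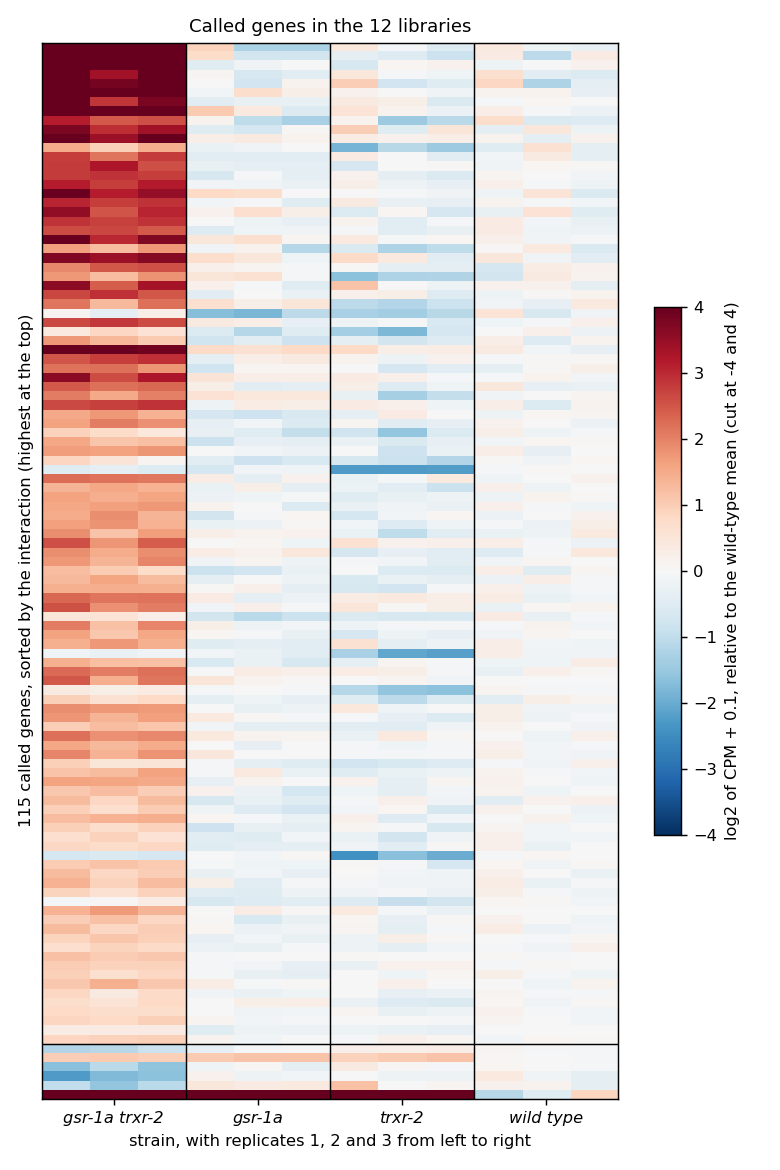
Level of the 115 called genes in the 12 libraries, as log2 of CPM + 0.1 relative to the wild-type mean, with 1 row per gene sorted by the interaction and colours cut at −4 and 4. Red fills the columns of the double mutant for most of the 109 upper rows, and the columns of the other strains are mostly pale. The horizontal line sets off the 6 genes called lower.

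C-type lectins, a large family of secreted sugar-binding proteins of which many respond to infection, gave the most calls. Of 134 tested, 8 were above the multiplicative level and 1, *clec-48*, was below it, with a list median of 0.49 against 0.02 for all genes tested. At an unadjusted p under 0.05, 54 of the 134 were higher and 7 lower. *clec-4* (II:12578356-12581098, WBcel235) was at 288, 289 and 247 CPM in double mutant libraries, at 6.62, 8.44 and 9.27 CPM in *gsr-1a*, at 5.86, 9.72 and 10.4 CPM in *trxr-2* and at 8.05, 9.20 and 10.4 CPM in wild type. The double mutant stood apart, while the libraries of the other strains overlapped. Its interaction was 5.16 ± 0.29 (SE, 95% interval 4.53 to 5.80, adjusted p = 1.03e-05), the smallest adjusted p of all genes. *trxr-2* loss changed *clec-4* by 5.07 ± 0.22 in the *gsr-1a* background and by −0.09 ± 0.20 in the wild-type background.

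*clec-66* and *clec-65* are neighbours on chromosome II, 1062 bases apart. *clec-66* was at 134, 179 and 113 CPM in the double mutant, 15.5, 14.4 and 14.7 CPM in *gsr-1a*, 12, 19.2 and 19.5 CPM in *trxr-2* and 17.3, 20.3 and 19.6 CPM in wild type, an interaction of 3.43 ± 0.28 (adjusted p = 0.000163). The *trxr-2* libraries overlapped those of both other strains, and *gsr-1a* lay just below wild type. The interaction of *clec-65* was smaller, 1.81 ± 0.23 (adjusted p = 0.00258), with means of 186, 49.3, 58.9 and 54.7 CPM in double mutant, *gsr-1a*, *trxr-2* and wild type. *clec-265* (2.09 ± 0.29) and *clec-10* (1.74 ± 0.19) were likewise called in each of the 12 fits that left out 1 library.

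Lysozymes moved in both directions. *lys-2*, an intestinal lysozyme, was at 386, 401 and 345 CPM in the double mutant, 44.3, 56.1 and 57.0 CPM in *gsr-1a*, 60.8, 46.7 and 51.2 CPM in *trxr-2* and 79.7, 56 and 54 CPM in wild type. All double mutant libraries were over 300 CPM and no other library reached 80 CPM, and the interaction was 3.10 ± 0.25 (adjusted p = 0.000163). The invertebrate-type lysozyme *ilys-5* was the other lysozyme called of 11 tested, below the multiplicative level. The list had a median of −0.57.

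Of 38 other immune and infection response genes tested, 4 were above the multiplicative level and 1, the thaumatin-like gene *thn-2*, below it (median 0.73). *F55G11.8*, which encodes a protein with a CUB-like domain, was at 37.6, 43 and 36.6 CPM in the double mutant, 7.57, 7.11 and 4.69 CPM in *gsr-1a*, 5.19, 5.72 and 3.89 CPM in *trxr-2* and 5.29, 5.72 and 6.82 CPM in wild type, an interaction of 2.88 ± 0.29 (adjusted p = 0.00057). Its neighbour *F55G11.7*, 688 bases away, had the largest interaction called (6.54 ± 1.32, adjusted p = 0.045). It was near silence outside the double mutant, with 438 counts there against 4 in *gsr-1a*, 6 in *trxr-2*, and 7 counts in wild type. The other 2 were *pals-6* (3.59 ± 0.68) and *dod-19* (1.05 ± 0.20). The calls of *F55G11.7*, *pals-6* and *dod-19* depended on single libraries: they held in 3, 3 and 5 of the 12 fits that left out 1 library, with adjusted p up to 0.134, 0.138 and 0.121.

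Enzymes of drug metabolism formed the second large group. UDP-glucuronosyltransferases attach glucuronic acid or sugars to small molecules, and 5 of 56 tested were above the multiplicative level and none below (median 0.23), with 10 higher at an unadjusted p under 0.05. *ugt-62* was at 593, 526 and 585 CPM in the double mutant, 80.3, 69.3 and 62.8 CPM in *gsr-1a*, 87.5, 57.3 and 74.5 CPM in *trxr-2* and 100, 73.7 and 64.4 CPM in wild type (interaction 3.12 ± 0.27, adjusted p = 0.000164). *ugt-19* was at 72.0, 55.9 and 74.5 CPM in the double mutant, 7.49, 7.38 and 6.82 CPM in *gsr-1a*, 9.55, 7.03 and 6.41 CPM in *trxr-2* and 9.35, 7.95 and 7.11 CPM in wild type (3.31 ± 0.25, adjusted p = 0.000163). For both genes the double mutant was far above the rest and the other strains overlapped. *ugt-50* (2.03 ± 0.18) and *ugt-21* (1.86 ± 0.26) had smaller interactions. The call of *ugt-16* (1.60 ± 0.32, adjusted p = 0.0441) held in 2 of the 12 fits without 1 library (adjusted p up to 0.123).

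Cytochrome P450 enzymes oxidize lipophilic compounds, the step that often precedes conjugation. Of 60 tested, 4 were above the multiplicative level and none below (median 0.26), with 10 higher and 5 lower at an unadjusted p under 0.05. *cyp-33C8* was at 295, 150 and 250 CPM in the double mutant, 16.7, 17.9 and 15.4 CPM in *gsr-1a*, 17.1, 15.7 and 16.7 CPM in *trxr-2* and 15.3, 10.7 and 15.4 CPM in wild type (3.54 ± 0.32, adjusted p = 0.000189). *cyp-14A4* was scarce in every strain but the double mutant, with 18.2, 15.5 and 15.8 CPM there, 0.348, 0.690 and 0.479 CPM in *gsr-1a*, 0.451, 0.394 and 0.341 CPM in *trxr-2* and 0.435, 0.436 and 0.292 CPM in wild type (4.92 ± 0.43, adjusted p = 0.000164). The lowest double mutant library exceeded the highest of the other 9 for both. *cyp-14A1*, 14758 bases from *cyp-14A4* on the X chromosome, had a smaller interaction (1.98 ± 0.26), and *cyp-13A12* (2.99 ± 0.51, adjusted p = 0.0198) kept its call in 8 of the 12 fits without 1 library (adjusted p up to 0.059).

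Other classes linked to detoxification, with fewer genes tested, gave fewer calls or none. The share of genes higher at an unadjusted p under 0.05 was nevertheless 20% for ABC transporters and 20% for glutathione S-transferases. It was 17.9% for glucuronosyltransferases, 16.7% for P450 genes, 3.33% for short-chain dehydrogenases and 9.47% for all genes tested. List medians were 0.27 for the transporters and 0.37 for the transferases. Of 20 *pgp* and *mrp* genes, whose ABC transporters export xenobiotics, *pgp-1* (1.60 ± 0.29) and *pgp-12* (1.65 ± 0.32) were above the multiplicative level, in 3 and 4 of the 12 fits without 1 library (adjusted p up to 0.119 and 0.126). None of 40 glutathione S-transferases and none of 30 short-chain dehydrogenases passed edgeR's test. Among the transferases 8 were higher and 0 lower at an unadjusted p under 0.05, and DESeq2 called 2. Among the dehydrogenases 1 was higher and 1 lower at that p, and DESeq2 called 1 lower. The smallest adjusted p of the transferases was that of *gst-38* (2.31 ± 0.55, adjusted p = 0.0909), followed by *gst-4*, a gene widely used to report on the oxidative stress factor SKN-1 (0.82 ± 0.21, adjusted p = 0.116).

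**Figure D3:**
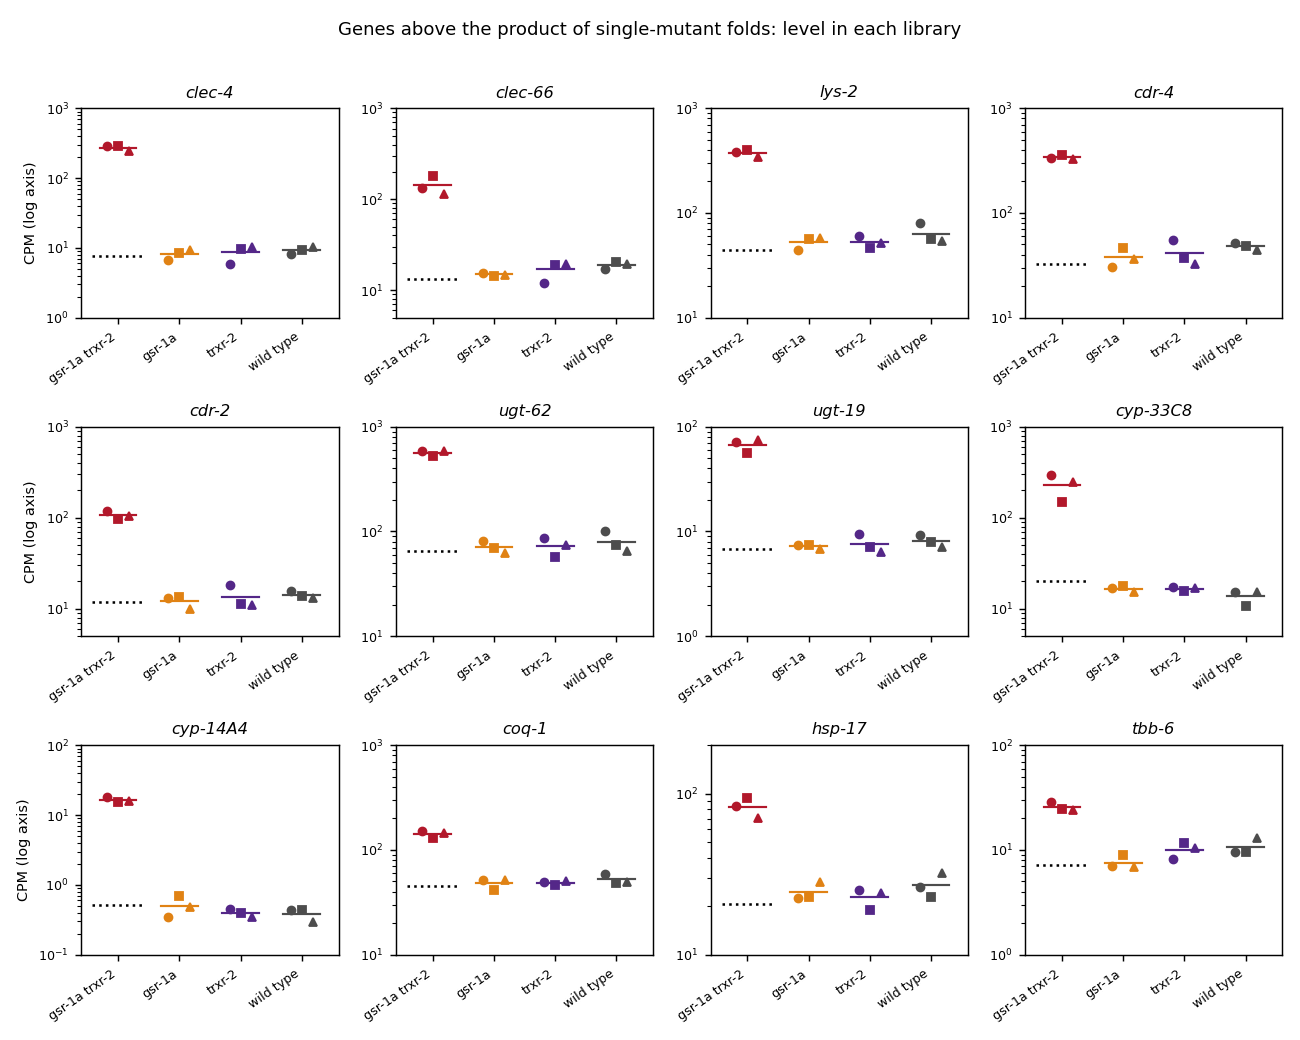
Level of 12 genes above the multiplicative level in each library, in CPM on log axes. Circles, squares and triangles are replicates 1, 2 and 3, solid lines are strain means, and the dotted line marks the multiplicative level for the double mutant. In every panel the 3 double mutant libraries lie above the other 9, which lie close to the dotted line.

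Of the genes of the metal and heme response, *cdr-4*, *hrg-2* and *cdr-2* lay close together on chromosome V. The CDR family was named for its induction by cadmium, and hrg genes respond to heme. *cdr-4* was at 335, 355 and 327 CPM in the double mutant, 30.6, 46.1 and 36.5 CPM in *gsr-1a*, 54.6, 36.7 and 32.3 CPM in *trxr-2* and 51.8, 48.2 and 44.6 CPM in wild type (3.39 ± 0.28, adjusted p = 0.000163). *cdr-2* was at 118, 96.4 and 105 CPM in the double mutant, 13.2, 13.5 and 10.01 CPM in *gsr-1a*, 18.3, 11.4 and 11.1 CPM in *trxr-2* and 15.5, 13.7 and 13.2 CPM in wild type (3.18 ± 0.28, adjusted p = 0.000164). For both, the 3 strains with at least 1 intact reductase overlapped. *hrg-2*, which lies between them (V:12409369-12410513), had means of 6.32, 1.35, 1.61 and 1.32 CPM in double mutant, *gsr-1a*, *trxr-2* and wild type and an interaction of 1.95 ± 0.37 (adjusted p = 0.0343, called in 3 of the 12 fits without 1 library, adjusted p up to 0.109). *hrg-7*, which encodes a secreted aspartic protease-like protein of heme signalling, was at 281, 138 and 225 CPM in the double mutant and between 46.2 and 71.5 CPM in the other 9 libraries. Its interaction was 1.84 ± 0.30 (adjusted p = 0.0172, called in 8 of 12 fits, up to 0.0646). The list of iron and metal response genes, which holds *cdr-4* and *cdr-2* but neither *hrg-2* nor *hrg-7*, had a median of 0.25 over 17 tested, with 4 higher and 3 lower at an unadjusted p under 0.05.

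Nuclear hormone receptors, a family of ligand-regulated transcription factors expanded in nematodes, had 5 of 177 tested above the multiplicative level and none below (median 0.24). *nhr-115* was at 9.74, 9.31 and 10.5 CPM in the double mutant and between 1.64 and 3.63 CPM in the other 9 libraries (2.18 ± 0.33, adjusted p = 0.012). *nhr-193* was at 8.75, 9.42 and 9.90 CPM in the double mutant, against 1.97 to 3.41 CPM elsewhere (2.03 ± 0.30, adjusted p = 0.00894). Both kept their call in all 12 fits without 1 library. *nhr-112* (2.42 ± 0.38), *nhr-210* (1.79 ± 0.31) and *nhr-8*, a receptor with roles in cholesterol balance and toxin resistance (1.43 ± 0.26), kept theirs in 10, 7 and 5 fits, with adjusted p up to 0.0525, 0.0747 and 0.0872.

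Of 18 proteases of the aspartic and cathepsin B-like classes, which work in the lumen of lysosomes and of the gut, 2 were above the multiplicative level (median 0.37), with 6 higher and 3 lower at an unadjusted p under 0.05. *asp-8* was at 124, 120 and 110 CPM in the double mutant, 12.9, 11.5 and 13.3 CPM in *gsr-1a*, 13.2, 9.07 and 9.34 CPM in *trxr-2* and 9.64, 7.08 and 5.99 CPM in wild type (2.75 ± 0.26, adjusted p = 0.000309). Here the *gsr-1a* libraries were also above all wild-type libraries, without closeness to the double mutant. *cpr-8* had an interaction of 1.65 ± 0.27 (adjusted p = 0.0143, called in 10 of 12 fits, up to 0.0572).

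Markers of the intestine differed between the same strains. None of the 11 intestinal markers tested had a called interaction in edgeR and their median was 0.18 (2 higher and 1 lower at an unadjusted p under 0.05 and in DESeq2), but together they took 0.373 to 0.419% of the counts in double mutant libraries, 0.273 to 0.295% in *gsr-1a*, 0.247 to 0.262% in *trxr-2* and 0.192 to 0.281% in wild type. *ges-1*, an esterase gene of the intestine, had an interaction of 0.73 ± 0.16 (adjusted p = 0.0751). All 11 were detected in every strain. The part of intestinal RNA content in the immune and detoxification results was not tested.

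Several genes with mitochondrial or stress roles were above the multiplicative level, while the chaperones of the mitochondrial unfolded protein response were not. *coq-1*, which encodes the polyprenyl synthase that makes the side chain of ubiquinone, was at 153, 130 and 146 CPM in the double mutant, 52.2, 41.3 and 51.9 CPM in *gsr-1a*, 49.4, 46.1 and 51 CPM in *trxr-2* and 59.4, 48.3 and 49.5 CPM in wild type. The other strains overlapped and the interaction was 1.66 ± 0.18 (adjusted p = 0.000819). *tbb-6*, a divergent tubulin gene used as a reporter of the PMK-3 branch of mitochondrial stress signalling, was at 28.9, 24.6 and 24.1 CPM in the double mutant, 6.97, 8.86 and 6.82 CPM in *gsr-1a*, 8.27, 11.6 and 10.4 CPM in *trxr-2* and 9.57, 9.47 and 13 CPM in wild type (1.86 ± 0.26, adjusted p = 0.00602). *hsp-17*, a small heat shock gene, was at 84.4, 93.4 and 71.1 CPM in the double mutant and between 19.1 and 32.1 CPM elsewhere (2.01 ± 0.24, adjusted p = 0.00146). All 3 kept their call in each of the 12 fits without 1 library. None of them kept it without replicate 2 or without replicate 3 of every strain (edgeR adjusted p from 0.06 to 0.622).

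3 further calls of this kind were less firm. *tsfm-1*, the mitochondrial translation elongation factor Ts, lies 6903 bases from *tbb-6* and was at 98.7, 93.8 and 105 CPM in the double mutant, against 49.9 to 58.7 CPM in the other 9 libraries. Its interaction was small and narrow (0.91 ± 0.14, adjusted p = 0.0136, called in 9 of 12 fits, up to 0.059). *mff-2*, related to the mitochondrial fission factor MFF, had an interaction of 1.24 ± 0.25 (adjusted p = 0.0439, 4 of 12 fits, up to 0.125) and was the only call among 17 genes of fission, fusion and mitophagy. *hmgs-1*, the HMG-CoA synthase of the mevalonate pathway that also supplies the side chain of ubiquinone, was at 57.0, 41.3 and 54.5 CPM in the double mutant and 25.5 to 35.1 CPM in the other 9 libraries (1.03 ± 0.20, adjusted p = 0.0362, 3 of 12 fits, up to 0.109).

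Of 16 genes for mitochondrial chaperones and protein import none passed edgeR's test (median −0.07), nor did any of 11 mitochondrial proteases (median 0.03) or of 10 regulators of the mitochondrial unfolded protein response (median −0.26). At an unadjusted p under 0.05 there was 1 gene in the first of these lists and 0 in both others, as in the calls of DESeq2. *hsp-6* was at 1092, 1015 and 1188 CPM in the double mutant, 933, 679 and 816 CPM in *gsr-1a*, 493, 936 and 1001 CPM in *trxr-2* and 243, 729 and 648 CPM in wild type. All double mutant libraries were the highest, but those of the other strains overlapped with each other, and replicate 1 of *trxr-2* and of wild type was low. The interaction was −0.14 ± 0.51 (95% interval −1.25 to 0.96, adjusted p = 0.952), so a departure of up to about 1 log2 unit in either direction was not detectable. The means were 1098 CPM in the double mutant, against a multiplicative level of 1214 CPM. *atfs-1* itself had an interaction of 0.09 ± 0.18 (95% interval −0.30 to 0.48). The nearest to a call among the chaperones was the DnaJ gene *dnj-10*, at 95.7, 95.9 and 102 CPM in the double mutant and 66.3 to 72.0 CPM in the other 9 libraries (0.53 ± 0.12, adjusted p = 0.0744).

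The redox systems themselves held no called gene. None of 10 thioredoxin and glutathione reductases and thioredoxins, 17 peroxiredoxins, glutaredoxins and glutathione peroxidases, 7 superoxide dismutases and catalases or 26 genes of glutathione synthesis and sulfur amino acids passed the test, with list medians of 0.03, 0.11, 0.21 and −0.02. At an unadjusted p under 0.05, 1, 1, 0 and 5 of them were higher and 0, 1, 0 and 2 lower, and DESeq2 called 1, among the peroxiredoxin list. *trx-2*, the thioredoxin that TRXR-2 reduces, was at 88.0, 70.5 and 79.3 CPM in the double mutant, 58.6, 47.1 and 43.7 CPM in *gsr-1a*, 68.8, 45.8 and 44.5 CPM in *trxr-2* and 65.5, 51 and 50.5 CPM in wild type. The double mutant libraries were above the other 9, and the interaction of 0.74 ± 0.26 (95% interval 0.17 to 1.32) missed the threshold (adjusted p = 0.268). Nuclear genes of oxidative phosphorylation (44 tested), the 12 protein-coding mitochondrial genes and 66 mitochondrial ribosomal proteins gave no call either. Their medians were −0.07, 0.23 and −0.07, and 1 oxidative phosphorylation gene had an unadjusted p under 0.05.

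Stress reporters of other compartments did not pass the test. *hsp-4*, the chaperone gene of the endoplasmic reticulum stress response, had an interaction of −0.20 ± 0.28 (95% interval −0.82 to 0.42). *hsp-16.2*, a small heat shock gene, was at 8.68, 7.80 and 3.15 CPM in the double mutant, 1.13, 3.66 and 3.99 CPM in *gsr-1a*, 1.95, 2.69 and 4.84 CPM in *trxr-2* and 3.99, 20.7 and 14.1 CPM in wild type. Its levels were highest in 2 of the wild-type libraries and overlapped among strains, and the interaction was 3.15 ± 0.86 (adjusted p = 0.137). Near-identical *hsp-16* copies lose reads that fit several places.

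Another shape, picked out after the values were seen, was a low level in *trxr-2* alone, with the double mutant closer to wild type than to *trxr-2*. It is shown with 4 genes. *R10E4.1* (III:4269743-4272506) was at 33.8, 37.2 and 32.6 CPM in the double mutant, 29.1, 44.6 and 42.4 CPM in *gsr-1a*, 9.92, 9.79 and 10.2 CPM in *trxr-2* and 45.6, 49.3 and 48.1 CPM in wild type. *trxr-2* loss changed it by −2.26 ± 0.15 in the wild-type background and by −0.17 ± 0.15 in the *gsr-1a* background, an interaction of 2.09 ± 0.21 (adjusted p = 0.000538). The pseudogenes WBGene00014309 (II:8787770-8789716) and WBGene00014307 (II:8784535-8785513), 2257 bases apart, were also low in *trxr-2*. WBGene00014309 was at 997, 915 and 972 CPM in the double mutant, 742, 757 and 724 CPM in *gsr-1a*, 351, 256 and 245 CPM in *trxr-2* and 835, 738 and 737 CPM in wild type (1.81 ± 0.22, adjusted p = 0.00175).

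WBGene00014307 was at 118, 109 and 120 CPM in the double mutant, 123, 110 and 99.2 CPM in *gsr-1a*, 53.6, 31.4 and 29.1 CPM in *trxr-2* and 158, 119 and 119 CPM in wild type (1.86 ± 0.30, adjusted p = 0.0136, called in 10 of 12 fits, up to 0.0566). Reads of a pseudogene and of its source gene may be split by the counting, so these levels are uncertain. *ZC317.7* (V:5468734-5471030) was at 8.35, 9.04 and 8.59 CPM in the double mutant, 13.3, 12.7 and 14.2 CPM in *gsr-1a*, 2.48, 4.20 and 3.34 CPM in *trxr-2* and 12.8, 14.3 and 13.6 CPM in wild type. Its double mutant libraries lay between those of *trxr-2* and those of the other 2 strains (1.39 ± 0.25, adjusted p = 0.0255, called in 4 of 12 fits, up to 0.0995). All 4 lie outside the *trxr-2* gene (III:8913769-8916450). *R10E4.1* shares chromosome III with both mutated genes and lies nearer to *gsr-1* (III:3650905-3652973) than to *trxr-2*. Whether a linked difference between the lines plays a part in its level was not tested. *Y105C5B.15* was instead lowest in *gsr-1a*, with 92.9, 97.2 and 80.1 CPM in the double mutant, 39.8, 31 and 36.2 CPM in *gsr-1a*, 44, 42 and 43.6 CPM in *trxr-2* and 82.1, 53.1 and 62.5 CPM in wild type (1.94 ± 0.22, adjusted p = 0.00125).

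The 6 genes below the multiplicative level fell into 2 shapes. In 4 the double mutant was low and the other strains were near each other, except that *trxr-2* was above the other strains for *clec-48*. *ilys-5* was at 118, 168 and 185 CPM in the double mutant, 646, 495 and 530 CPM in *gsr-1a*, 576, 493 and 502 CPM in *trxr-2* and 756, 515 and 450 CPM in wild type (−1.69 ± 0.31, adjusted p = 0.0299). *clec-48*, a C-type lectin that went against the rest of its family's calls, was at 28.8, 30.2 and 35.8 CPM in the double mutant, 51.8, 62.9 and 65.0 CPM in *gsr-1a*, 74.7, 74.8 and 78.2 CPM in *trxr-2* and 69.7, 62 and 63.2 CPM in wild type (−1.15 ± 0.17, adjusted p = 0.00809). *pho-11*, an acid phosphatase gene, was at 18.7, 28.3 and 19.5 CPM in the double mutant against 45.6 to 76.6 CPM elsewhere (−1.38 ± 0.25, adjusted p = 0.0275). *thn-2* was at 6.12, 4.06 and 5.77 CPM in the double mutant against 9.40 to 27.4 CPM elsewhere (−2.12 ± 0.42, adjusted p = 0.0412). *clec-48* was called in all 12 fits that left out 1 library, and *pho-11*, *ilys-5* and *thn-2* in 5, 4 and 4, with adjusted p up to 0.0888, 0.0888 and 0.117.

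In the other 2, every mutant strain was above wild type. The PCTAIRE-type cyclin-dependent kinase gene *pct-1* was at 108, 112 and 104 CPM in the double mutant, 113, 118 and 119 CPM in *gsr-1a*, 102, 113 and 119 CPM in *trxr-2* and 56.2, 54.8 and 51.2 CPM in wild type. The double mutant libraries lay just below those of *gsr-1a*, and *trxr-2* overlapped both. *trxr-2* loss changed *pct-1* by −0.11 ± 0.10 in the *gsr-1a* background and by 1.04 ± 0.10 in the wild-type background, an interaction of −1.16 ± 0.14 (adjusted p = 0.00145, called in all 12 fits). The major sperm protein gene *msp-76* was at 78.8, 32.7 and 70.5 CPM in the double mutant, 44.7, 23.6 and 19.8 CPM in *gsr-1a*, 24, 10.7 and 8.39 CPM in *trxr-2* and 0, 0.0544 and 0.292 CPM in wild type (−5.63 ± 0.95, adjusted p = 0.0198). Its call held in 11 of the 12 fits without 1 library (adjusted p = 0.0823 without wild-type replicate 2), but not in limma-voom (0.171). It was also lost without replicate 2 (0.2) or 3 (0.111) of every strain, but these fits called 0 genes lower, so *pct-1* was lost there too.

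The *msp-76* value rests on 7 counts in wild type. Against these, the double mutant held 2877 counts, a ratio of 443 (95% interval 215 to 1102), *gsr-1a* 1330 counts, a ratio of 204 (98.6 to 508), and *trxr-2* 605 counts, a ratio of 105 (50.9 to 263). These intervals cover counting error only, not the spread between libraries. The direction of the *msp-76* interaction depended on the scale. With differences of CPM in place of log2 values the interaction was 17.1 CPM (adjusted p = 0.754), since the sum of both single-mutant increases was less than the increase in the double mutant. Reads of near-identical *msp* genes that fit several places were not counted.

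**Figure D4:**
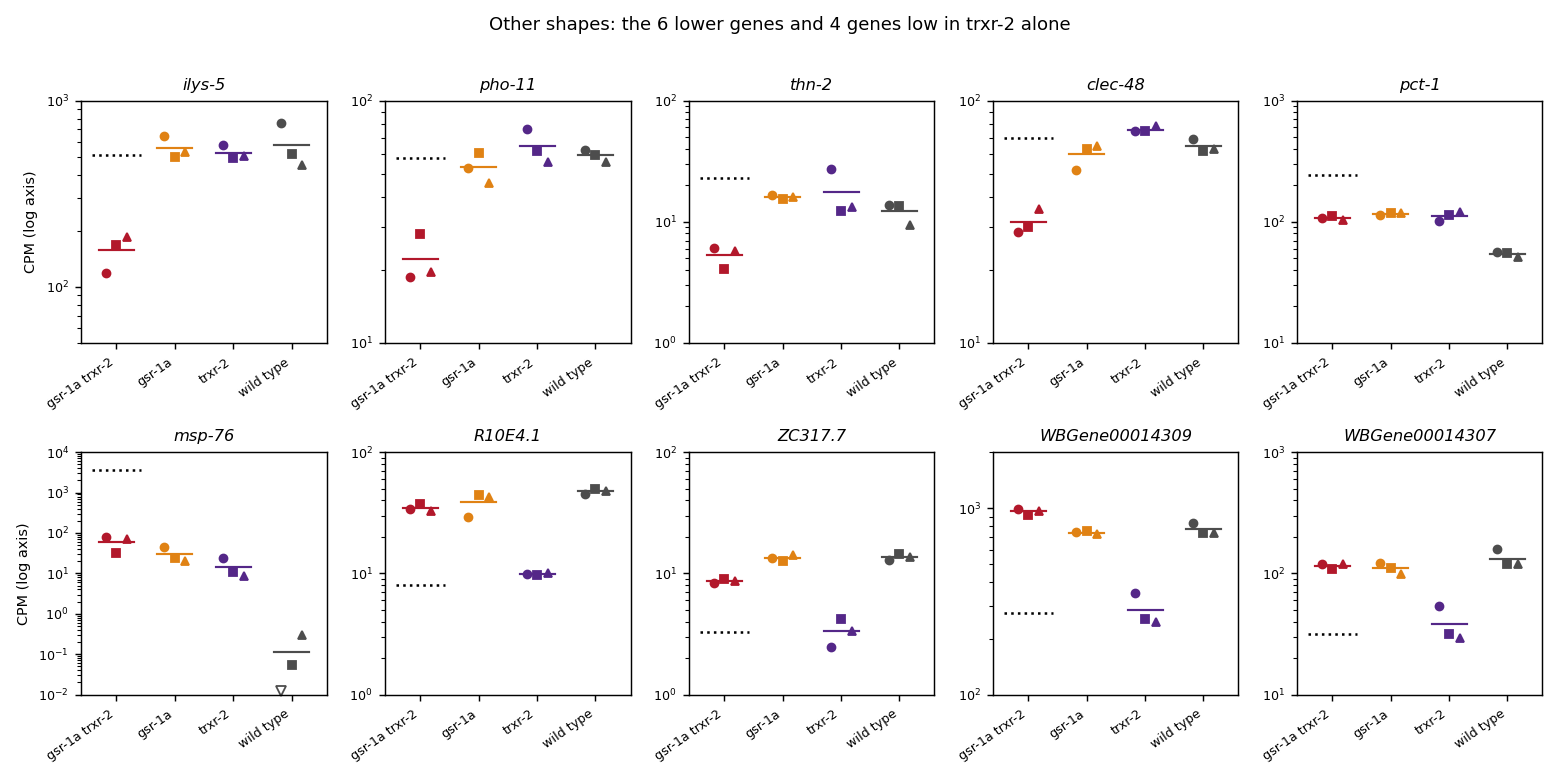
Level of the 6 genes called lower and of 4 genes called higher that were low in *trxr-2* alone, in CPM on log axes. Circles, squares and triangles are replicates 1, 2 and 3, solid lines are strain means, the dotted line marks the multiplicative level and the open triangle stands for a library at 0. *ilys-5*, *pho-11*, *thn-2* and *clec-48* are low only in the double mutant, and *pct-1* is at a similar level in all mutant strains.

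Some large differences between strains were not called as interactions, in genes that were close to 0 in 3 strains. *F22B3.7* (IV:11417581-11421796) was at 33.9, 32.8 and 33.9 CPM in the double mutant, and no other library was above 0.261 CPM. It held 1638 counts in the double mutant, 5 in *gsr-1a*, 1 in *trxr-2*, and 1 counts in wild type. The double mutant level was 329 times that of *gsr-1a* (95% interval 141 to 1014), 1446 times that of *trxr-2* (259 to 57144) and 1764 times that of wild type (316 to 69706). These intervals, too, cover counting error only. The interaction was 8.03 ± 2.89 with an adjusted p of 0.278 in edgeR, 0.00115 in DESeq2 and 0.00692 in limma-voom. A rule set after these values were seen, with at least 1 CPM in every double mutant library and at most 10 counts summed in each other strain, gave 6 genes: *F22B3.7*, *F55G11.7*, *ZK177.9*, WBGene00008306, *F47B10.4* and *his-9*. *F55G11.7* and *ZK177.9* were called. *F47B10.4* had 71 counts in the double mutant and 0 in each other strain. Against a floor of 3 counts per strain its level was 23.8-fold that of *gsr-1a*, 20.9-fold that of *trxr-2* and 25.5-fold that of wild type. The lower bounds of the 95% intervals, which cover counting error only, were 18.8, 16.6 and 20.2.

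Some genes that differed widely between strains had no called interaction. *gid-8* was at 5.92, 5.74 and 6.43 CPM in the double mutant, 6.53, 5.47 and 3.57 CPM in *gsr-1a*, 32.1, 23.1 and 24.6 CPM in *trxr-2* and 29.7, 24.8 and 26.0 CPM in wild type. It followed the *gsr-1a* allele alone, with an interaction of 0.24 ± 0.29 (95% interval −0.39 to 0.87). *B0511.11* averaged 15 ± 1.12 CPM in the double mutant, 20.7 ± 0.654 CPM in *gsr-1a*, 3.84 ± 1.1 CPM in *trxr-2* and 4.93 ± 0.278 CPM in wild type (SD, n = 3 each), an interaction of −0.10 ± 0.26 (−0.67 to 0.47). The collagen gene *col-92* was highest in *trxr-2*, with 69.0, 101 and 76.5 CPM in the double mutant, 82.3, 35.8 and 27.8 CPM in *gsr-1a*, 139, 171 and 180 CPM in *trxr-2* and 20.2, 30.3 and 22.4 CPM in wild type (−1.99 ± 0.47, adjusted p = 0.092). The chemoreceptor gene *srw-85* held 175 counts in the double mutant, 61 in *gsr-1a*, 64 in *trxr-2*, and 0 counts in wild type (adjusted p = 0.0651). Its double mutant level was 62.8-fold that of wild type against the floor of 3 counts, with a lower 95% bound of 50.5 from counting error only. The lipid desaturase gene *fat-7* was at 33, 104 and 48.2 CPM in the double mutant and between 203 and 316 CPM elsewhere, and its interaction of −2.29 ± 0.48 just missed the threshold (adjusted p = 0.0547).

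Lists tied to reproduction and to the cuticle had shifted medians with almost no single gene called. The 26 major sperm protein genes tested (of 31) had a median interaction of 1.21, with 14 higher at an unadjusted p under 0.05 and *msp-76* the only call. The 57 other sperm genes (of 66) had a median of 1.21 and no call, with 27 higher at an unadjusted p under 0.05 and 2 in DESeq2. For these 57 genes the median difference from wild type was 2.07 in the double mutant, 0.95 in *gsr-1a* and −0.05 in *trxr-2*. Major sperm protein genes took 0.0664 to 0.145% of the counts in the double mutant, 0.0371 to 0.0640% in *gsr-1a*, 0.0150 to 0.0412% in *trxr-2* and 0.0229 to 0.0297% in wild type. The 6 yolk genes had a median of −2.03 and no call (2 lower at an unadjusted p under 0.05), and their levels were low in the 2 libraries named above. The 141 cuticle collagens had a median of −0.52 and no call (1 higher and 3 lower at an unadjusted p under 0.05): relative to wild type, their median was 0.92 in the double mutant, 0.82 in *gsr-1a* and 0.59 in *trxr-2*. The 76 cytosolic ribosomal protein genes had a median of −0.50 and no call, with 8 lower at an unadjusted p under 0.05. Markers of oocytes, embryos, the germline, muscle, neurons and the hypodermis had medians between −0.31 and 0.18, also without a call in edgeR or DESeq2. At an unadjusted p under 0.05 they held between 0 and 2 higher and between 0 and 4 lower genes each. What part the amount of sperm, yolk or cuticle RNA had in these medians was not tested.

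**Figure D5:**
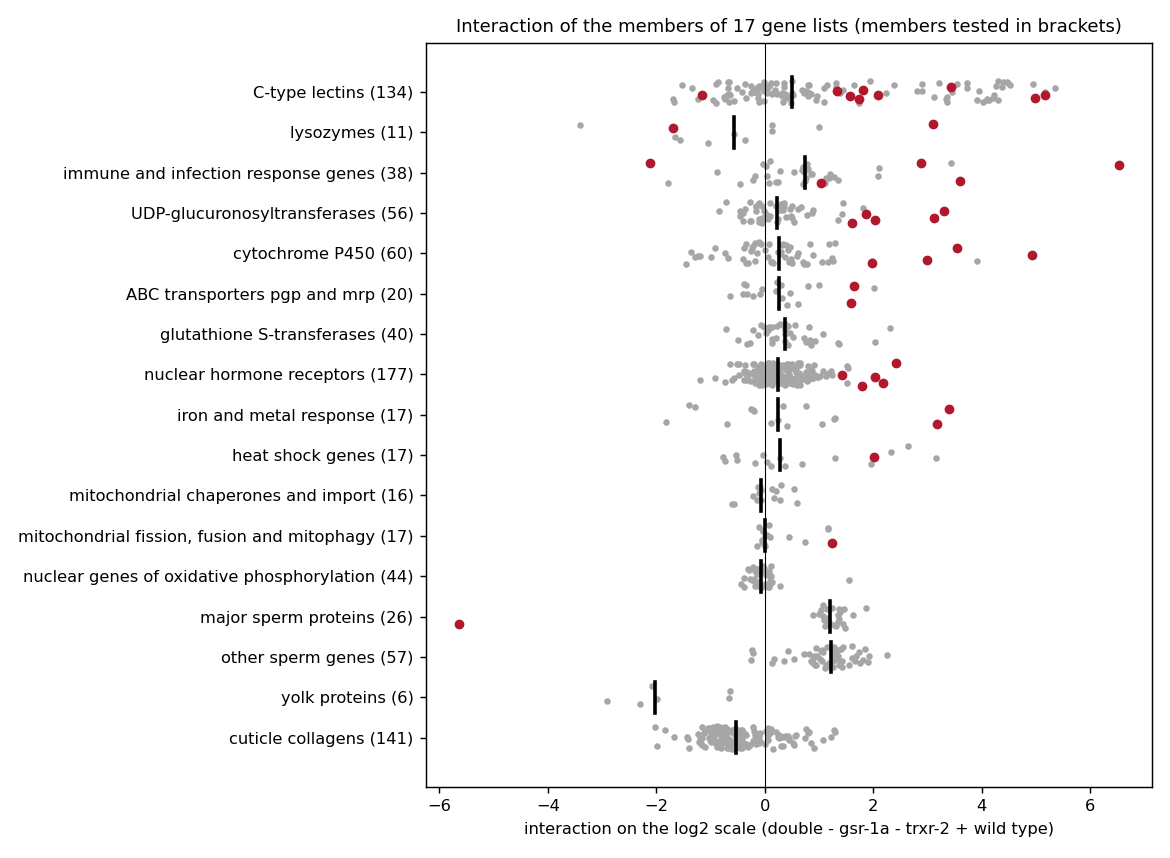
Interaction of each tested member of 17 gene lists on the log2 scale. Red points are called genes, grey points are not called, black bars are list medians and the number tested stands in brackets. Calls are found among lectins, lysozymes, glucuronosyltransferases, P450 genes and receptors, the sperm lists are shifted to the right at a median of 1.21, and mitochondrial chaperones and oxidative phosphorylation genes lie close to 0.

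The called genes were unevenly spread over the chromosomes, which is given as a description. Chromosome V held 44 of the 115 (38.3%) and 19.1% of the genes tested. There were 11 pairs of called genes less than 20 kb apart, made up of 21 genes, among them *clec-65* and *clec-66*, the *cdr* and *hrg-2* group, *cyp-14A1* and *cyp-14A4*, *F55G11.7* and *F55G11.8*, *tbb-6* and *tsfm-1*, and the pseudogene pair. How many such pairs other sets of 115 tested genes would hold was not counted, so the pairs are no measure of clustering. In 10 of the 11 pairs both interactions were positive, as were 109 of all 115 called interactions. The pair of *Y37H2A.14* (2.72) and *clec-48* (−1.15) was the exception. Of the 115 called genes, 113 were protein coding, a share that was not counted over all genes tested.

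The count of called genes depended on single libraries more than the list of leading genes did. Higher and lower calls numbered 57 and 3 without double mutant replicate 1, 289 and 8 without its replicate 2 and 52 and 4 without its replicate 3. They were 75 and 4, 52 and 3, and 46 and 4 without replicates 1, 2 and 3 of *gsr-1a*, 201 and 13, 59 and 4, and 58 and 5 without those of *trxr-2*, and 189 and 8, 62 and 2, and 56 and 3 without those of wild type. With replicate 1 left out of both wild type and *trxr-2*, an alternative added after the data were seen, there were 382 and 53, and 108 of the 109 and all 6 were among them. In all 12 fits that left out 1 library, 42 genes were called, 40 higher and 2 lower (*pct-1* and *clec-48*). Without replicate 2 of every strain 7 of the 109 stayed called, and without replicate 3 of every strain 8. In both of these fits 0 of the 6 lower genes did. On the scale of CPM differences, where 0 means a sum and not a product of both changes, 114 of the 115 kept their sign, and 96 of the 109 and 2 of the 6 were called.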

How the data were processed

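Per the labels and the study's methods, polyA RNA from whole young adults was sequenced from stranded libraries. The authors deposited 1 table per library with unnormalized read pair counts of every gene, made with featureCounts 2.0.0 on HISAT2 alignments to WBcel235, with Ensembl release 97 genes and the strand setting of the kit. Pairs were assigned to whole gene spans, introns included, and a pair with more than 1 matching place or gene was not counted, which lowers recent duplicates such as *msp* genes. FastQC 011.9 and SAMtools are also named in the submitters' processing notes. The HISAT2 version is not given in the sources used here.

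The 46904 genes were filtered by strain with edgeR 4.0.16 (R 4.3.3), which left 15004, and CPM were scaled by the trimmed mean of M-values. A quasi-likelihood model with 1 mean per strain was fitted to all 12 libraries, and the interaction contrast was tested for every gene, two-sided, with p-values adjusted by Benjamini-Hochberg across these 15004. Ratios of low counts have exact binomial 95% intervals on counts summed per strain, which cover counting error only. A floor of 3 counts per strain stands for a summed count of 0. DESeq2 1.42.0, limma 3.58.1 on voom weights, other scalings and filters, a replicate block, the CPM scale and fits without libraries were alternatives. The model was tested on simulated data.

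The genes and lists were chosen with earlier results of these data known. Genes were considered for naming by rules, and not all of them are described. The rules took *gsr-1*, *trxr-2*, the 15 genes called higher with the largest interaction at a mean of at least 1 CPM, and the 6 called lower. They also took up to 4 called genes per list with the smallest adjusted p (2 genes in a list without a call). Genes measured by the study with qPCR or reporters, and genes called earlier in a single mutant, were taken too. Large called interactions not described above include *C04C3.14* (5.07), *clec-17* (4.99) and *ifas-3* (4.51). They were called in 8, 3 and 3 of the 12 fits that left out 1 library. The cytochrome P450 and mitochondrial genome lists were redefined after values were seen. *coq-1*, *hmgs-1*, *tsfm-1*, *hrg-2*, *hrg-7*, *Y105C5B.15*, *Y37H2A.14*, *clec-265*, *nhr-8*, *ugt-16*, the pseudogene pair, the genes near 0 outside the double mutant other than *F22B3.7* and *F55G11.7*, and the genes named in the closing observations were chosen after their values were seen.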

Additional observations from a re-analysis of the deposited data

Results flagged for a closer look

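The effect of *trxr-2* loss differed between the *gsr-1a* and wild-type backgrounds, by the test of the interaction itself, in 109 genes with a higher value in the *gsr-1a* background and in 6 genes with a lower value there. The difference between both effects was −5.63 for *msp-76*, −2.12 for *thn-2*, −1.69 for *ilys-5*, −1.38 for *pho-11*, −1.16 for *pct-1* and −1.15 for *clec-48* on the log2 scale.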

How the results depend on the processing

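Against 109 genes above and 6 below the multiplicative level, edgeR's likelihood ratio test called 453 and 25, DESeq2 361 and 34, limma-voom 99 and 5, DESeq2-type size factors in edgeR 111 and 8, and library totals alone 213 and 3. With library totals the median interaction of all genes was 0.231, against 0.02, and the 109 kept their call but 4 of the 6 did not. Without a filter there were 132 and 9 calls and with more than 1 CPM in at least 3 libraries 107 and 9. On the CPM scale there were 183 and 4, and *msp-76* changed sign to 17.06 CPM (adjusted p = 0.754). The other 114 called genes kept their sign in every alternative that could be computed. Fits that left out 1 library gave 46 to 289 higher and 2 to 13 lower calls, with the values per library in the text. Leaving out replicate 1, 2 or 3 of every strain gave 294, 7 and 8 higher and 114, 0 and 0 lower calls in edgeR (2104, 102 and 89 lower at an unadjusted p under 0.05), and the joint omission of replicate 1 of wild type and *trxr-2*, added after the data were seen, 382 and 53. With replicate number as a block there were 129 and 13 calls, among them 98 of the 109 and all 6. The named calls that ended were *F55G11.7* (adjusted p = 0.0529), *hrg-2* (0.0517), *ugt-16* (0.0514) and *pgp-12* (0.0535). The numbers were not treated as pairs in the main fit, since the labels tie no number to an experiment. Over 18 same-number pairs of libraries the correlation of deviations had a median of 0.093 (−0.0843 to 0.541), against −0.0621 over 36 other pairs. It was over 0.1 in 9 of the 18, including all 3 between *trxr-2* and wild type (0.266 to 0.541) and all 3 between *gsr-1a* and wild type (0.13 to 0.231). Of 12 libraries, 8 correlated best with a library of their own number. With 3 libraries per strain the interaction of a gene near 0 in some strains rests on few counts, and values under the floor of 3 counts cannot be told from 0.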

Other observations

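Genes outside the groups above were also above the multiplicative level. *apy-1*, an apyrase gene, was at 188, 167 and 174 CPM in the double mutant, against 77.7 to 84.8 CPM in the other 9 libraries, and its interaction was 1.11 ± 0.13 (SE, edgeR adjusted p = 0.00132). The claudin-like gene *clc-11* was at 10.3, 9.96 and 9.64 CPM in the double mutant and at 0.109 to 0.610 CPM elsewhere (5.92 ± 0.78, adjusted p = 0.00379). The neighbours *B0205.14* and *B0205.13*, 391 bases apart on chromosome I, had interactions of 4.60 ± 0.71 and 3.04 ± 0.33. Of 270 F-box and MATH/BATH genes, which are candidate substrate adaptors of ubiquitin ligases, *fbxa-74* (1.56), *fbxa-182* (2.02) and *bath-26* (2.996) were called. The list median was 0.03, and 6.67% of the list was higher at an unadjusted p under 0.05, against 9.47% of all genes tested. These 3 calls held in 5, 3 and 4 of the 12 fits that left out 1 library, with adjusted p up to 0.0998, 0.102 and 0.119.

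A larger set of genes had high interactions that did not pass the test. By a rule set after the values were seen (an interaction over 3, a mean of at least 5 CPM in the double mutant and no call), there were 97 such genes, among them 18 C-type lectin genes, 5 *fipr*, 4 *scl*, 3 *try* and 3 *srlf* genes. Their median interaction was 4.24 with a median SE of 1.11, against an SE of 0.295 for the 109 called higher. The median of the SD divided by the mean over double mutant libraries was 0.635, against 0.136 for the 109. The rule asked for an interaction over 3 without a call. The high median, the larger SE and the larger spread therefore follow from it in part. Per library, their median level was 16.12, 3.52 and 14.9 CPM in the double mutant, 0.871, 2.44 and 2.93 CPM in *gsr-1a*, 0.226, 0.591 and 0.546 CPM in *trxr-2* and 0.508, 1.36 and 2.44 CPM in wild type. Double mutant replicate 2 was the lowest of its strain, and so was replicate 1 of the other 3 strains. The rule asked for high double mutant values, so the following count is fixed by it in part. In 60 of the 97 all double mutant libraries lay above the other 9, against 10.7% of all genes tested. The insulin-like gene *ins-31* was an example, at 62.8, 12.1 and 56.5 CPM in the double mutant, 3.05, 7.69 and 9.42 CPM in *gsr-1a*, 0.226, 1.64 and 1.77 CPM in *trxr-2* and 1.02, 4.08 and 7.75 CPM in wild type (4.50 ± 1.11, adjusted p = 0.103).

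Double mutant replicate 2 was also the lowest of its strain for sperm genes. The share of counts in genes for major sperm proteins was 0.145, 0.0664 and 0.134% in the double mutant libraries, 0.064, 0.0467 and 0.0371% in *gsr-1a* libraries, 0.0412, 0.0169 and 0.015% in *trxr-2* libraries and 0.0229, 0.0243 and 0.0297% in wild type. In the double mutant and in wild type, both measures put the libraries of the strain in the same order. In *gsr-1a* and *trxr-2*, replicate 1 was the lowest for the 97 genes and had the highest share. Whether worm stage at harvest or the amount of sperm RNA plays a part in the level of the 97 genes was not tested.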
